A study of Bos taurus with 48 samples.

Results

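Of the 21475 probes on a bovine Agilent array, 150 were taken for a higher signal in longissimus muscle at 135 days of gestation than at both 60 days and birth. The rule did not compare 135 days with 195 days. Members were chosen by the background-subtracted signals of the scanner files, on a log2 scale with the median of each channel set to 0 and with the channels of a time point averaged. A probe had to be well above background in every spot of all 6 channels at 135 days, which 12828 probes were. The rule value is the smaller of 2 differences, 135 days minus 60 days and 135 days minus birth. It was above 0 for 2948 probes, and the 150 with the highest values are the members. The rule used the levels at 60 days, 135 days and birth, so any difference among these 3 time points is given as a description without a test. Levels at 195 days and after birth, differences between the crosses and the diet experiment were not used by the rule. A RefSeq gene could be assigned to 125 of the 150 members, and the other 25 keep the name on the array (ACRP30 and expressed sequence tags such as CB420097).

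The developmental samples came from calves of Hereford dams sired by Piedmontese, a heavily muscled breed, or by Wagyu, a breed with much fat within the muscle. The 60 days samples were 1 animal of each cross, each on 3 arrays, so at that age the repeats are technical. At 135 days there were 5 animals (3 Piedmontese and 2 Wagyu), at 195 days 5 (2 and 3) and at birth, given as 280 days in the labels, 6 (3 and 3). After birth 8 animals were measured at 3, 7, 20, 25 and 30 months (4 and 4) and 6 at 12 months (4 and 2), mostly the same animals at each age. In the diet experiment, Belmont Red cattle were kept on a growth diet or on a restricted diet, called weight loss in the labels. The first sampling, time 0, holds 4 animals of each diet, and time 1 holds 4 on growth and 3 on restriction. Time 2 holds 2 of each and is not compared here, but all times were fitted together, so it helps set the spread. Animals sampled at several times entered that fit as separate values, without an animal block. All samples were biopsies, so fewer cells of a type and less RNA per cell cannot be told apart in any value below. The number of arrays and animals limits the precision. A p-value sets a difference against the spread of values among these animals or, where animals were paired, the spread of their changes.

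Prenatal muscle is built in waves: myoblasts fuse into primary fibres in early gestation and into secondary fibres later, and fibre number is largely set before birth. Fibroblasts, endothelial cells and blood cells fill the space around the growing fibres, and some of the mesenchymal progenitors there can become fat cells. Fat cells are known by adiponectin (ADIPOQ), the fatty acid carrier FABP4, the lipid droplet proteins PLIN1, CIDEA and CIDEC and the transcription factor PPARG, whereas adult muscle fibres are known by their actins, myosins and troponins.

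The array reads genes through probes of 60 bases, some genes through several. The 7 probes below are shown because the results turn on them: the first 4 read genes of fat cells, and the last 3 read genes with higher means at 135 days than at birth and low readings in GP672. ACRP30 is an older name of adiponectin, and its probe and that of ADIPOQ share no run longer than 7 bases, so adiponectin was read by separate stretches.
ACRP30: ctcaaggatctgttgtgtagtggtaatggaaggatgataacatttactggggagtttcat
ADIPOQ: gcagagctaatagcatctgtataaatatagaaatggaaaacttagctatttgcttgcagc
FABP4: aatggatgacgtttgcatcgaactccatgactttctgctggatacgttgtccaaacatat
CIDEC: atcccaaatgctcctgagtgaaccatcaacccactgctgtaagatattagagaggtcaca
CCKAR: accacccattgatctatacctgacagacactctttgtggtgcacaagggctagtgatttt
IGSF1: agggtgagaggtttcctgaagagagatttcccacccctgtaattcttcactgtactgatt
F2: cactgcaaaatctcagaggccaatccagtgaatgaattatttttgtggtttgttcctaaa

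One of the libraries that chose the members went against its label. The library labelled GP672, a Piedmontese animal at 135 days read in 1 channel, was far lower than the other animals in the defining messages of muscle. Levels here and below are log2 signals after background correction and normalization, on which the median of all probes lay near 7.93 and background near 6.5 to 7. The skeletal actin ACTA1 stood at 9.96 in GP672 and at 16.80 to 17.58 in the other 4 animals at 135 days, and the fast myosin light chain MYL1 at 8.43 against 17.14 to 17.63. MYOD1, the transcription factor of myoblasts, stood at 9.05 against 14.64 to 14.88. Other muscle genes were also lower but lay above the median of all probes, with TNNC2 at 12.97 against 17.79 to 18.25. MYH3 read 12.09 against 17.58 to 18.06. Many fat genes ran the other way, with DGAT2, the enzyme of the last step of triglyceride synthesis, at 15.61 against 7.73 to 9.86. Not all did, as LEP read 6.92 against 6.73 to 6.92. Of the 2 CEBPA probes, 1 read 16.72 against 11.31 to 12.28 and the other 14.91 against 14.01 to 15.19. The summed signal of 9 muscle fibre markers was 14.33 in GP672 (log2 of the sum) against 19.36 to 19.81, and that of 10 adipocyte markers was 17.46 against 11.83 to 13.11. Of these adipocyte markers 6 are members, as is DGAT2, and the rule that chose the members read GP672. Of the markers that are not members, LIPE read 11.39 against 7.49 to 8.34, whereas LEP, given above, did not differ in this way. The smooth muscle markers summed to 17.07 against 15.67 to 16.00 and the tendon markers to 13.19 against 15.89 to 17.40, whereas the 9 endothelial markers differed little (14.28 against 14.01 to 14.18). Over all probes GP672 correlated with the other 135 days animals at 0.939 to 0.945, and these with each other at 0.991 to 0.997. In every other developmental animal the muscle fibre sum lay between 18.06 and 20.25. Whether GP672 holds another tissue was not tested. Values that rest on GP672 are therefore given with and without it where both were made.

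**Figure D1:**
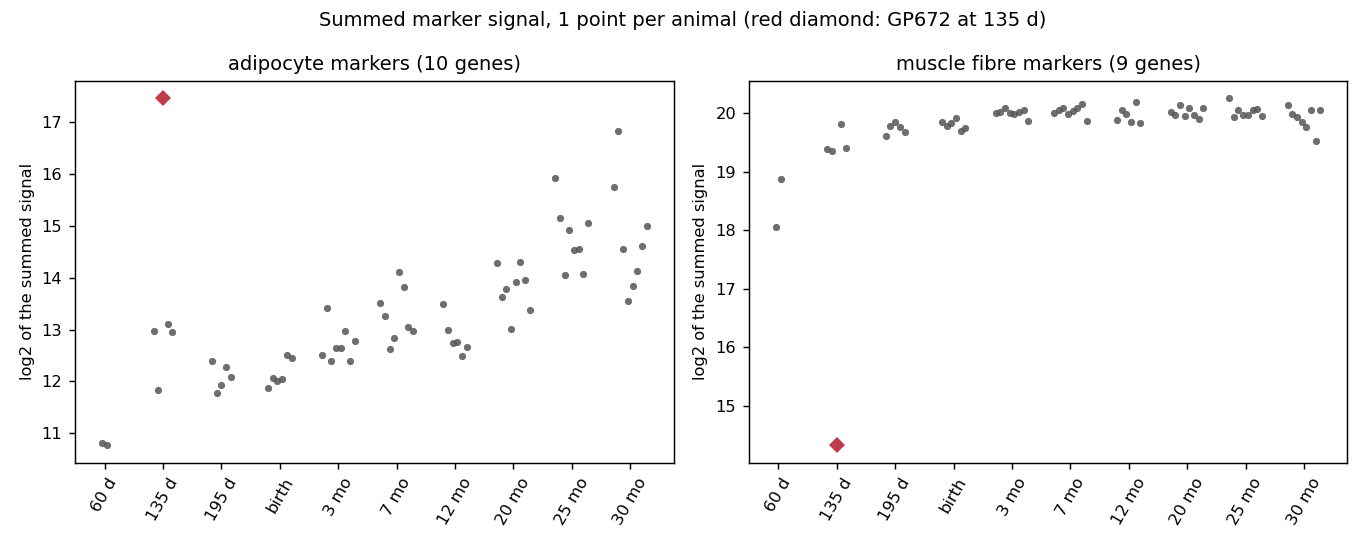
Summed signal of 10 adipocyte markers (left) and 9 muscle fibre markers (right) by age, as log2 of the sum, with 1 point per animal. GP672 (red diamond) had the highest adipocyte sum, 17.46, and the lowest muscle fibre sum, 14.33, of all developmental animals.

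The members divide by how GP672 read them. In 25 members (16.7%) GP672 lay 1 or more above the highest of the other 4 animals at 135 days, which was so for 3.70% of all probes. In 20 members (13.3%) it lay 1 or more below the lowest of them, against 3.07% of all probes, and the other 105 members lay between. The rule read this library as 1 of 6 channels, so these shares describe the members and test nothing. Without its channel the rule kept 97 of the 150 among its highest 150 probes: 12 of the 25 members that were high in GP672, 20 of the 20 that were low in it, and 65 of the 105 between. All 150 still had a rule value above 0.

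**Figure D2:**
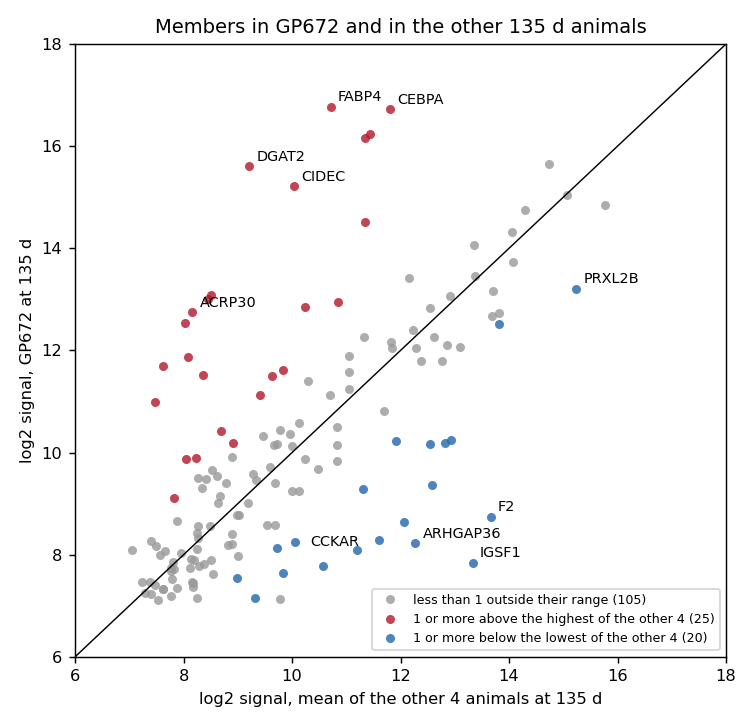
Level of each of the 150 members in GP672 (vertical axis) against the mean of the other 4 animals at 135 days (horizontal axis), both as log2 signal. The 25 red points, among them FABP4, CIDEC and DGAT2, lie 1 or more above the highest of the other 4, and the 20 blue points, among them IGSF1, F2 and CCKAR, 1 or more below the lowest.

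By rule value, the leading 12 members with a gene symbol were ACRP30, CIDEC, ADIPOQ, FABP4, GHRH, AIFM3, TRARG1, CFB, EXOC3L4, TCF7, THRSP and CDH1. Of these, 6 are genes of fat cells or of fat synthesis: both adiponectin probes, CIDEC, FABP4, TRARG1, which governs the traffic of the glucose transporter of fat cells, and THRSP, a regulator of lipid synthesis. All 6 were among the 25 members high in GP672. At the other end of the list the last members were PLAU, the urokinase protease (rule value 1.078), MAP3K7CL (1.068) and STBD1, a glycogen binding protein (1.063), and the first probes left out were CAPN5 (1.063), TIE1 (1.055) and S100A4 (1.054). The edge of the list thus cut through a continuous run of values. A rule value is set by background-subtracted signals, which spread widely near background: AIFM3, ranked among the highest by a value of 2.88, read only 6.96 to 7.11 in 4 animals at 135 days and 8.09 in GP672 after normalization.

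Over the 10 developmental ages most members had their highest mean at 135 or 195 days. The mean was highest at 135 days in 66 members and at 195 days in 60, against 8.62% and 7.55% of all probes, and in 11 at 25 months, 7 at 30 months, 4 at 12 months and 2 at 7 months. Without GP672 the count at 135 days was 61. The mean at 195 days was at or above that at 135 days in 67 members (44.7%, all probes 49.2%). In 24 members (16.0%, all probes 6.68%) every 195 days animal lay above every 135 days animal, and in 9 (6.0%, all probes 6.84%) every 135 days animal lay above every 195 days animal. Both counts include GP672 and were not made without it, and its reading alone kept some members out of either. In F2 the other 4 animals read 13.40 to 13.91 (GP672 8.74), against 12.92 to 13.32 at 195 days. In RARRES2 they read 12.96 to 13.78 (GP672 14.06), against 13.85 to 14.40. At 195 days, every animal lay above every animal at birth in 114 members (76.0%), against 18.6% of all probes. The difference of 195 days minus birth had a median of 1.21 over the members, from -0.88 to 6.13, and was above 0 in 139 of 150. At 135 days, every animal lay above every animal at birth in 106 members (70.7%, all probes 18.1%), and above those at 60 days as well in 89 (59.3%, all probes 2.27%), or in 117 (78.0%, all probes 4.57%) with GP672 left out. Birth, 60 days and 135 days levels entered the rule, so these counts are descriptions.

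**Figure D3:**
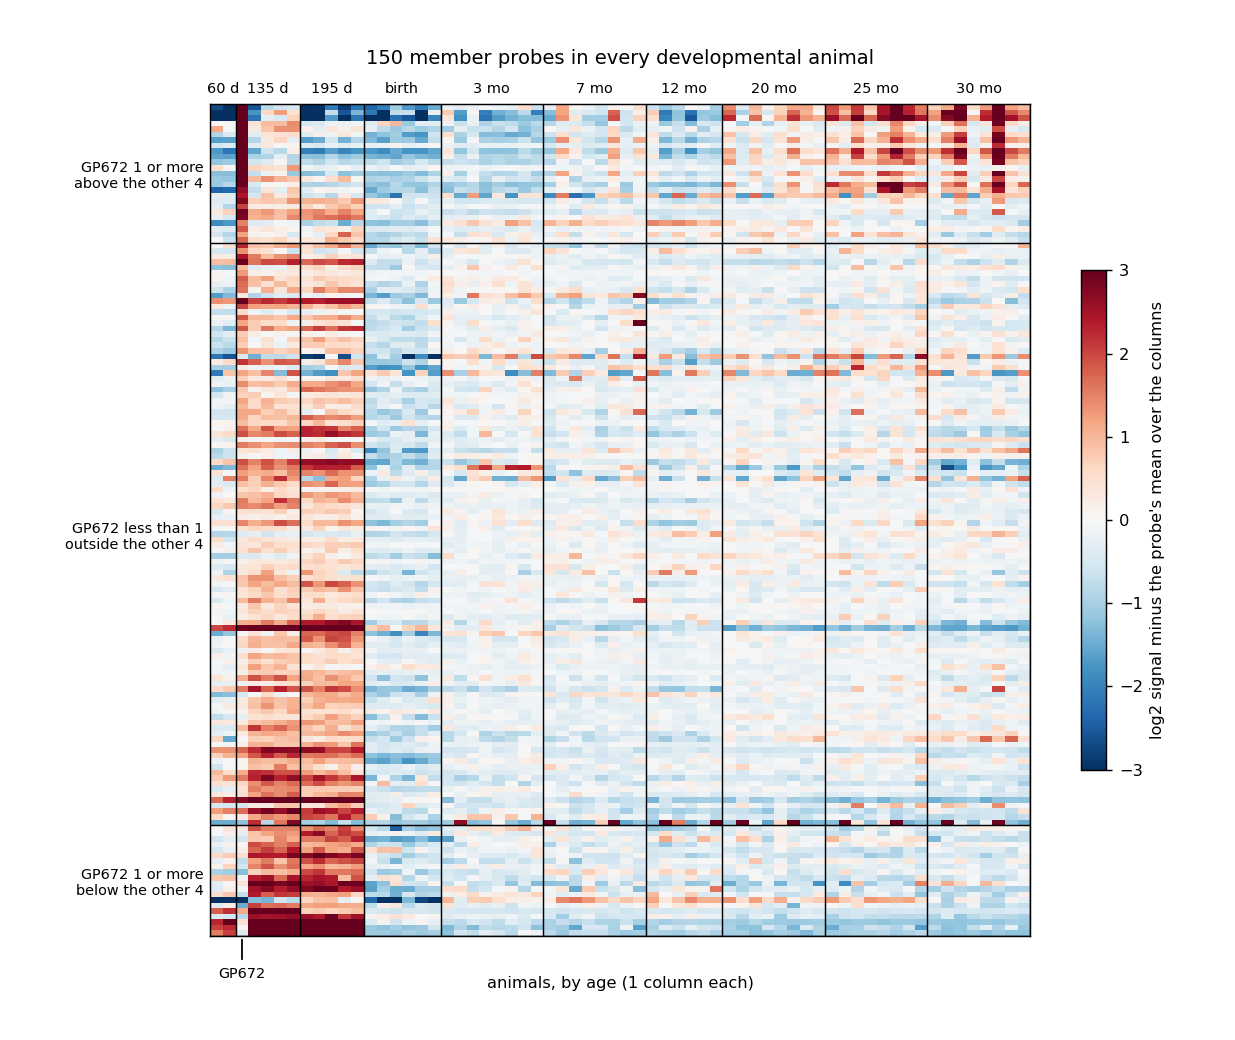
Level of the 150 members (rows) in every developmental animal (columns, by age) as log2 signal minus the mean of the probe over the columns, in 3 blocks by the reading of GP672. Most rows are red at 135 and 195 days and blue at birth, and the top block, high in GP672, is red again at 20 to 30 months in many animals.

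Members that were high in fetal muscle and low from birth on held the widest differences between 195 days and birth. IGSF1, a membrane glycoprotein of the immunoglobulin superfamily known from the pituitary thyroid axis, read 9.80 and 10.32 at 60 days. At 135 days it read 13.07, 13.22, 13.45 and 13.60 in the animals other than GP672, which read 7.84, and at 195 days 12.97, 13.14, 13.46, 13.50 and 13.62. At birth it had fallen to 7.14 to 7.29, and at 3 months it lay between 7.04 and 8.26. The 5 animals at 195 days and the 8 at 3 months did not overlap. The log2 difference of 195 days minus 3 months was 5.62 (SE 0.18, limma adjusted p = 7.13e-13). IGSF1 has 2 probes on the array, of which only this 1 is a member, and the other is not described here.

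F2 encodes prothrombin, the clotting factor made chiefly by liver. It read 10.74 and 10.93 at 60 days, 13.40, 13.53, 13.81 and 13.91 at 135 days with GP672 at 8.74, and 12.92, 12.96, 12.99, 13.23 and 13.32 at 195 days. Birth animals read 7.47 to 8.14 and 3-month animals 7.35 to 8.08. Every 195 days animal lay above every animal at birth and at 3 months, and 195 days exceeded 3 months by 5.37 (SE 0.13, adjusted p = 3.91e-14). ARHGAP36, which restrains protein kinase A and raises hedgehog signalling, followed the same course. Its levels were 11.89, 12.31, 12.33 and 12.55 at 135 days (GP672 8.22), 11.65 to 12.08 at 195 days, 7.18 to 7.91 at birth and 6.98 to 7.44 at 3 months. GOLPH3L, a Golgi protein, differed in that GP672 was also high: it read 12.06 there, 12.88 to 13.27 in the other 4, 13.36 to 14.10 at 195 days and 8.92 to 9.40 at birth. The 195 days minus 3 months differences were 4.79 (SE 0.11, adjusted p = 1.03e-14) for ARHGAP36 and 4.91 (SE 0.16, adjusted p = 1.03e-12) for GOLPH3L, with no overlap of the animals in either.

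CCKAR, the receptor of the gut hormone cholecystokinin, stood at its highest at 135 days and had mostly fallen by 195 days. It was singled out after its values were seen. It read 8.97 and 9.36 at 60 days, 11.29, 11.41, 11.79 and 11.92 at 135 days with GP672 at 8.28, and only 7.83, 7.88, 7.96, 7.97 and 8.09 at 195 days. No channel was well above background at birth, where the readings were 6.56 to 6.73, nor at 3 months. The mean at 135 days was at least 16.2-fold higher than at birth, and at least 25.7-fold without GP672. At 195 days it was at least 1.98-fold higher than at 3 months (limma adjusted p = 2.27e-12). A bound of this kind sets the mean of the bright group against the lowest signal that still counted as above background on the dim arrays.

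**Figure D4:**
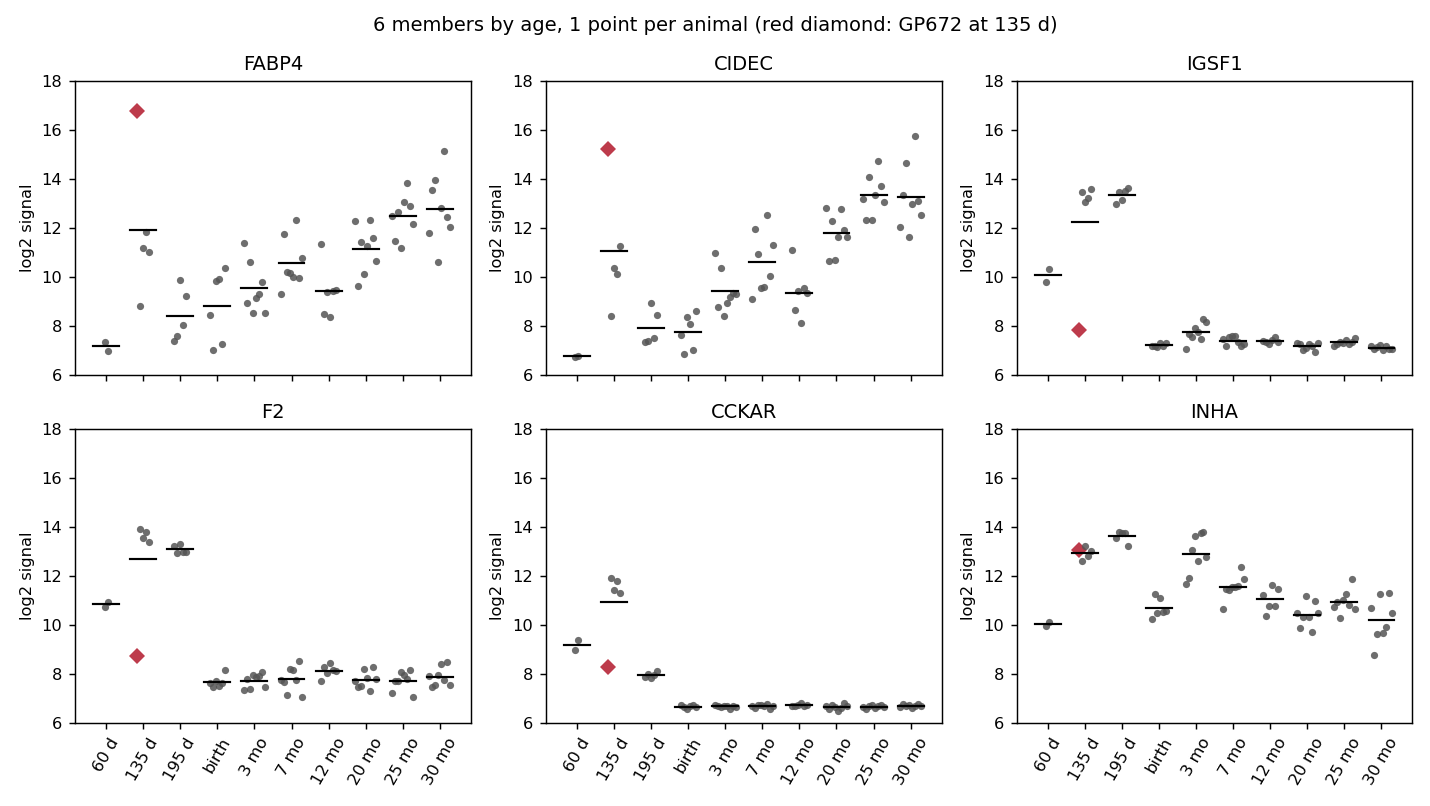
Level of 6 members by age as log2 signal, 1 point per animal, with the mean of each age as a bar. IGSF1 and F2 were high at 135 and 195 days and lower from birth, CCKAR was high at 135 days, FABP4 and CIDEC rose after birth, INHA was high at 3 months too, and GP672 (red diamond) stood apart in all but INHA.

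Several genes of fat cells followed another course. The adipocyte list holds 10 genes on the array, and 6 of them are members (CIDEC, ADIPOQ, FABP4, PLIN1, CIDEA and PPARG), to which the second adiponectin probe adds ACRP30. CIDEA was an exception, as it stayed higher at 195 days (9.86 to 10.30) than at birth (8.65 to 9.45). FABP4 read 6.97 and 7.35 at 60 days. At 135 days it read 8.81, 11, 11.18 and 11.84, and 16.77 in GP672. It fell back to 7.36, 7.59, 8.01, 9.20 and 9.86 at 195 days and read 7.00 to 10.36 at birth. Even without GP672 the 135 days animals lay above both 60 days animals, but GP012, at 8.81, lay inside the range of 195 days and birth.

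CIDEC read 6.72 and 6.77 at 60 days, where no channel was well above background, and 8.38, 10.11, 10.34 and 11.27 at 135 days, with 15.21 in GP672. The 135 days mean was at least 18.2-fold higher than at 60 days, and at least 8.89-fold without GP672. For ACRP30 this bound was 4.71-fold with GP672 (12.75) and 2.49-fold without it (7.36 to 8.87), and for ADIPOQ 2.51-fold with it (10.98) and 1.54-fold without it (6.84 to 8.07). PPARG, the transcription factor that drives fat cell formation, read 13.08 in GP672 and 8.14 to 8.79 in the other 4, close to its 7.92 and 8.08 at 60 days and 8.21 to 8.58 at birth. TRARG1 read 13.00 against 7.59 to 9.36, THRSP 11.52 against 7.97 to 8.58, and TNNI3, the cardiac form of troponin I, 11.12 against 9.20 to 9.57.

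Of the genes of connective tissue and vessels, only some were members: 1 of 20 collagens (COL15A1), 1 of 30 matrix glycoproteins (MFAP5), 2 of 9 fibroblast markers (MFAP5 and DPT), 1 of 9 endothelial markers (CDH5) and 0 of 16 proteoglycans. COL15A1, a collagen of basement membranes, read 12.16 to 13.10 at 135 days with GP672 at 12.27, 13.79 to 14.31 at 195 days and 10.31 to 11.26 at birth. MFAP5, of elastic microfibrils, read 13.96 to 14.75 at 135 days, 12.77 to 14.05 at 195 days and 11.46 to 12.68 at birth, and DPT, the matrix protein dermatopontin, 12.87 to 14.08, 12.46 to 13.28 and 10.82 to 11.70. IGFBP6, which binds insulin-like growth factor 2, read 14.65 to 15.50 at 135 days, 14.14 to 14.92 at 195 days and 12.24 to 13.57 at birth. In all 4 genes every fetal animal at 135 and 195 days lay above every animal at birth.

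CDH5, the cadherin of endothelial junctions, read 12.04 to 12.42 at 135 days, 12.53 to 13.24 at 195 days and 10.38 to 10.86 at birth, and the endothelial protocadherin PCDH12 11.95 to 12.56, 13.11 to 13.20 and 8.91 to 9.63. Both were thus higher in every animal at 195 days than in any at 135 days. HEYL, a target of Notch signalling, read 13.70 to 14.12 at 135 days in 4 animals and 12.51 in GP672, 13.54 to 14.26 at 195 days and 9.73 to 11.67 at birth. CHRDL1, an antagonist of bone morphogenetic proteins, read 11.14 to 11.68 and 14.51 in GP672, 10.36 to 11.24 at 195 days and 9.33 to 9.97 at birth.

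Complement genes were members of 2 kinds. CFB, factor B of the alternative pathway, read 9.47 and 9.85 at 60 days, 12.64 to 12.92 at 135 days with GP672 at 10.18, 12.20 to 12.73 at 195 days and 8.20 to 10.30 at birth. C1QB and C1QC, chains of C1q made by macrophages, moved less: C1QC read 9.14 and 9.29 at 60 days, 10.92 to 11.57 at 135 days, 10.28 to 11.12 at 195 days and 9.37 to 10.03 at birth. TCF7, a transcription factor of WNT signalling, read 7.86 and 7.88 at 60 days, 9.25 to 10.44 at 135 days, 8.77 to 9.38 at 195 days and 7.25 to 8 at birth. EXOC3L4 read 6.91 and 7.46 at 60 days, 8.30 to 9.07 in 4 animals at 135 days and 7.62 in GP672. CDH1, the epithelial cadherin, stayed near background throughout, at 7.33 to 7.69 at 135 days, and its mean there was at least 1.48-fold that at birth and 1.54-fold without GP672.

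The comparison of 195 days with 3 months asks which members that were high in the fetus had settled at another level in the young calf, in animals that the rule did not use. It called 126 of the 150 members by limma's moderated test at an adjusted p under 0.05, against 55.9% of all probes. Of these, 117 (78.0%) were higher at 195 days and 9 (6.0%) lower, where 28.2% and 27.7% of all probes were called higher and lower. The median difference was 0.84 over the members and -0.01 over all probes. Without overlap, every 195 days animal lay above every 3-month animal in 99 members (66.0%, all probes 18.8%) and below in 3 (2.0%, all probes 18.4%). In all, 11 members had no channel well above background at 3 months, so for these a fold can be given only as a bound.

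Among the connective tissue and vessel genes, COL15A1 was higher at 195 days by 1.30 (SE 0.15, adjusted p = 8.75e-07), DPT by 1.15 (SE 0.13) and IGFBP6 by 1.00 (SE 0.17). CDH5 was higher by 1.62 (SE 0.16) and PCDH12 by 2.99 (SE 0.24, adjusted p = 2.00e-08). CFB was higher by 3.37 (SE 0.18), whereas C1QB differed by 0.08 (SE 0.18, adjusted p = 0.728) and C1QC by 0.35 (SE 0.15, adjusted p = 0.0620), neither of which passed. Of the whole lists, 8 of 9 endothelial probes were higher at 195 days and 1 lower, 10 of 12 fibroblast probes were higher and none lower, and of 10 macrophage probes none was higher and 1 lower. The summed erythroid markers lay at 16.73 to 17.82 at 195 days and at 12.14 to 15.45 at 3 months, and their part in the members' differences was not tested.

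The 9 members that were lower at 195 days than at 3 months were DGAT2, BOLA-DQB1, CIDEC, TNNI3, TRARG1, RTP4, FGD2, PLIN1 and SLC22A4. DGAT2 read 7.08, 7.35, 7.47, 8.13 and 8.19 at 195 days and 9.66 to 10.85 at 3 months, with a median of 10.13, a difference of -2.51 without overlap (SE 0.20, adjusted p = 1.56e-08). CIDEC differed by -1.50 (SE 0.38, adjusted p = 0.00299), TNNI3 by -1.41 (SE 0.23) and TRARG1 by -1.07 (SE 0.22). FABP4 and the adiponectin probes did not pass, with -1.12 (SE 0.49, adjusted p = 0.0641) for FABP4 and -0.43 (SE 0.18, adjusted p = 0.0556) for ADIPOQ. Of the 10 adipocyte probes 5 were lower at 195 days and 1, CIDEA, was higher. Groups at 195 days and 3 months lie on different slides, and with the slide as a random block 120 members were called.

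The comparison of 20 with 3 months, in the same 8 animals at both ages, asks where the members went as the animals grew. It called 55 members, 33 higher and 22 lower at 20 months, against 22.8% of all probes (11.6% higher and 11.2% lower), and the median was -0.01 over the members. Of the 25 members that were high in GP672, 15 rose and none fell. With each channel centred on its median in place of loess and Aquantile, 23 members were called, against 3.47% of all probes. This comparison shares its 3-month animals with the one above, so the values stand beside each other without a test of their relation.

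CIDEC rose most, from 8.41 to 10.96 at 3 months (median 9.24) to 10.64 to 12.83 at 20 months (median 11.77), a difference of 2.39 (SE 0.17, adjusted p = 1.01e-05). FABP4 rose by 1.63 (SE 0.22, adjusted p = 0.000379), TRARG1 by 1.42 (SE 0.19) and THRSP by 1.41 (SE 0.23). Both adiponectin probes rose by nearly the same amount, ACRP30 by 0.95 (SE 0.18, adjusted p = 0.00261) and ADIPOQ by 0.97 (SE 0.18, adjusted p = 0.00256), and PLIN1 rose by 0.88 (SE 0.15). DGAT2, lower before birth, rose again by 0.84 (SE 0.16, adjusted p = 0.00355). Of the 10 adipocyte probes 7 rose and none fell, and the summed adipocyte markers went from 12.40 to 13.42 at 3 months to 13.01 to 14.31 at 20 months.

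INHA, the alpha subunit of inhibin, fell most. It read 11.68 to 13.81 at 3 months (median 12.90) and 9.69 to 11.16 at 20 months (median 10.39), with no overlap, a difference of -2.48 (SE 0.23, adjusted p = 2.75e-05). Its 3-month level overlapped the fetal one. It read 12.62 to 13.21 at 135 days, 13.23 to 13.78 at 195 days and 10.22 to 11.24 at birth, and the difference of 195 days minus 3 months was 0.72 (SE 0.32, adjusted p = 0.0677). The metalloproteinase MMP23 fell by 0.67 on the log2 scale (SE 0.08, adjusted p = 0.000165), the actin-associated PDLIM4 by 0.63 (SE 0.10) and HEYL by 0.61 (SE 0.15, adjusted p = 0.0102). The calls of HEYL and PDLIM4 were lost under that centring (adjusted p = 1 and 0.687), and that of HEYL without replicate 3 or 4. COL15A1 and MFAP5 fell too, by 0.43 and 0.38 on the log2 scale. C1QB and C1QC fell by 0.41 and 0.45, and 5 of the 10 macrophage probes were lower at 20 months.

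**Figure D5:**
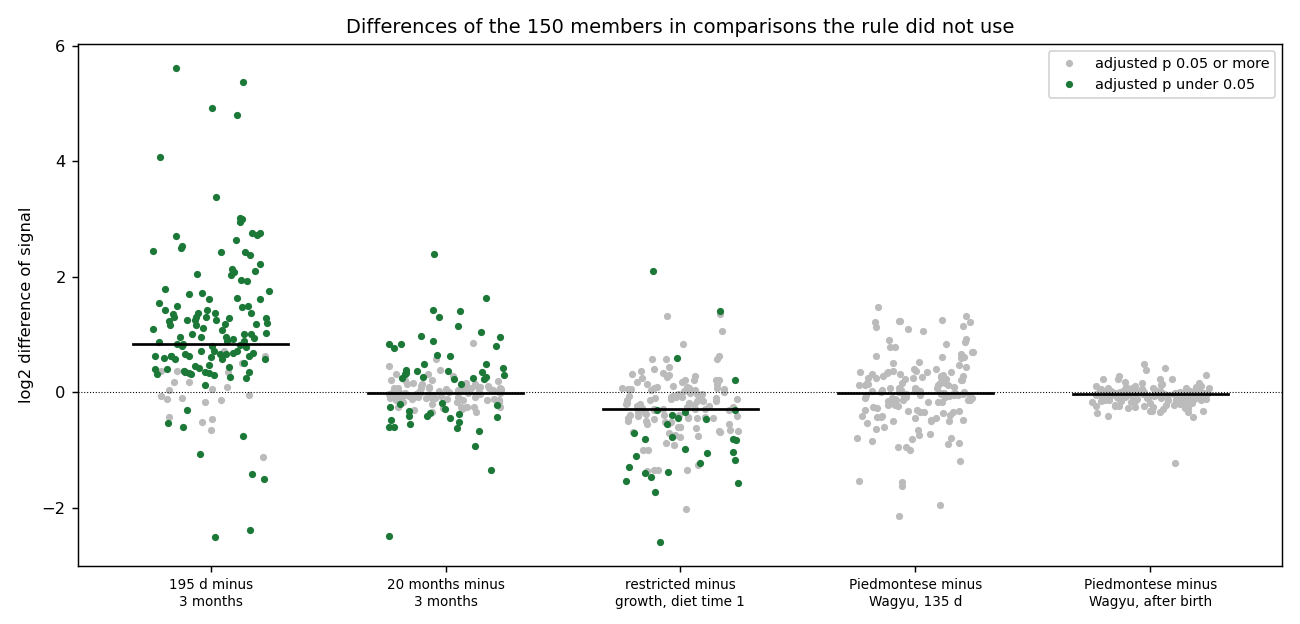
Difference of each of the 150 members in 5 comparisons that the rule did not use, on the log2 scale, with the median as a bar and green points at an adjusted p under 0.05. The 195 days minus 3 months differences lie mostly above 0 (117 called higher, 9 lower), those under the restricted diet mostly below 0 (26 called lower, 4 higher), and no member was called between the crosses.

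The diet experiment asks how the members responded to weight loss in older cattle. At time 1, restricted animals differed from those on the growth diet in 30 members, 26 lower (17.3%) and 4 higher (2.67%), against 14.0% of all probes, 6.88% lower and 7.15% higher. The median was -0.30 over the members. At time 0, 0 members were called by limma (2.72% of all probes, 1.23% higher and 1.49% lower) and 22 had an unadjusted p under 0.05, against 15.1% of all probes. With the difference at time 0 subtracted, in the animals sampled at both times, 15 members were called, 13 lower and 2 higher, against 6.33% of all probes, and 11 of these were among the 30.

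HEYL showed the widest difference among those called: 10.13, 10.14 and 10.47 in the 3 restricted animals and 12.04, 12.65, 12.67 and 14.00 in the 4 on the growth diet. The groups did not overlap, and the difference was -2.60 (SE 0.36, adjusted p = 0.000246). INHA read 8.90, 8.93 and 9.42 against 10.12 to 11.30 (-1.74, SE 0.28, adjusted p = 0.000758), and DPT 9.97, 10.31 and 10.55 against 11.35 to 12.29 (-1.58, SE 0.24, adjusted p = 0.000556). COL15A1 was lower by a log2 difference of -1.47 (SE 0.25, adjusted p = 0.00108), MFAP5 of -1.23 (SE 0.37, adjusted p = 0.0328), PCDH12 of -1.54 (SE 0.34) and CDH5 of -0.81 (SE 0.23, adjusted p = 0.0280). All 7 genes named here passed the test at time 1. With the difference at time 0 subtracted HEYL, COL15A1 and DPT passed, and INHA (adjusted p = 0.0738), PCDH12 (adjusted p = 0.0622), MFAP5 (adjusted p = 0.108) and CDH5 (adjusted p = 0.160) did not.

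Markers of some cell types differed between the diets at time 1 as well. The summed fibroblast markers stood at 13.68, 13.75 and 14.48 in the restricted animals and at 15.39 to 17.63 in the others, and 7 of 12 fibroblast probes were lower. The endothelial sum was 13.09 to 13.28 against 13.46 to 13.99, the smooth muscle sum 14.24 to 14.64 against 15.10 to 15.65 and the muscle fibre sum 19.20 to 19.31 against 20.19 to 21.11, and tendon markers were high in 1 growth animal (17.26 against 11.99 to 13.89 in the other 6). Of 10 macrophage probes 1 was called, lower under restriction, and of 10 lymphocyte probes none was called. At time 0 the fibroblast sum spanned 14.63 to 17.51 over the animals of both diets. The part of these markers in the members' differences was not tested.

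F2 rose under restriction. The 3 restricted animals read 9.40, 9.42 and 10.80, against 7.49, 7.63, 7.91 and 8.08 on the growth diet, a difference of 2.10 (SE 0.29, adjusted p = 0.000236), and it was 1.59 (SE 0.20, adjusted p = 0.0139) after the difference at time 0 was subtracted. All 3 restricted animals lay above the 4 on the growth diet. C16H1orf74, an open reading frame of unknown role, was higher by 1.41 (SE 0.27, adjusted p = 0.00244) and ABCG4, a sterol transporter, by 0.59 (SE 0.09, adjusted p = 0.000706). In both, all restricted animals lay above all others. Each of these genes has 2 probes on the array, of which 1 is a member. With the difference at time 0 subtracted ABCG4 passed (0.51, adjusted p = 0.0407) and C16H1orf74 did not (0.95, adjusted p = 0.175). AIFM3 was called too, but no channel of either diet was well above background, so its direction is not read here. Genes of fat cells varied within both diets and none of the 10 adipocyte probes was called: CIDEC read 6.88, 8.43 and 9.5 in the restricted animals and 8.28 to 11.69 in the others (-2.03, SE 0.95, adjusted p = 0.175).

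Between the crosses no member was called by limma. At 135 days 0 of 150 passed (0 of all probes), and 14 had an unadjusted p under 0.05 against 2.31% of all probes. Without GP672 the count was also 0. Averaged over 135 days, 195 days and birth the counts were 0 and 13 (4.18% of all probes), and after birth 0 and 7 (3.60%). GP672 is 1 of the 3 Piedmontese animals at 135 days, and the Piedmontese minus Wagyu difference was -1.96 for IGSF1 and 1.47 for PPARG, and -0.15 (SE 0.21) and -0.06 (SE 0.20) without GP672. With the mean of each array subtracted, or from the deposited log10 ratios, 16 and 14 members were called after birth, against 5.27% and 5.93% of all probes. With array means subtracted, the crosses share each array's mean and enter as mirror images. The ratios were fitted as 1 value per array with no animal term, so repeat arrays of the same animals counted as separate values. With 2 or 3 animals per cross at each prenatal age, a p that misses the threshold does not show that the crosses were alike.

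Some members differed as widely between animals of an age as between ages. GHRH, the hypothalamic hormone that releases growth hormone, read 11.12, 10.56 and 9.93 at 135 days in GW780, GP012 and GW625 but 7.48 and 7.13 in GP921 and GP672, and 7.04 to 7.64 at 195 days. After birth it read 11.02 to 12.91 at every age in the Piedmontese animal GP130. The Wagyu animal GW179 read 7.20 at 3 months and 11.27 to 11.91 from 7 months on. IGFLR1, a receptor of the tumour necrosis factor family, also differed between animals of an age. It read 7.29 and 10.21 in the animals at 60 days, 8.08 in 1 and 10.30 to 11.28 in 4 at 135 days, and 7.54 to 7.96 in 3 and 10.20 to 10.58 in 2 at 195 days. BOLA-DQB1, a class II antigen-presenting chain of a gene family with many near copies and alleles, read 7.62 to 7.91 in 3 animals and 9.98 and 10.57 in 2 at 195 days. For these genes the mean at an age depended on which animals were sampled.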

How the data were processed

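Total RNA of longissimus dorsi biopsies was hybridised to 48 2-colour arrays, 96 channels, each array with both arms of an experiment and with dyes swapped between arrays. The authors scanned the arrays, and the deposited raw and background-subtracted intensities, flags and log10 ratios (Cy5 over Cy3, dye-normalized within the array) were made with Agilent Feature Extraction 9.5.1 per the file headers. The genome build is not given in the sources used here. Groups came from the labels. GP041A and GP041B were counted as separate animals, as their codes differ, but may be samples of a single animal.

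Members, gene lists and tests were chosen with earlier results of these data known. The rule used the background-subtracted intensities, set to at least 1. For levels and tests, the raw intensities were corrected in R 4.3.3 with limma 3.58.1 (normexp, offset 50), control and outlier spots were dropped, and loess within and Aquantile between arrays followed. The dye effect of each probe was removed, estimated without the array of GP672, a step decided after its values were seen. Channels of one animal at an age were averaged to a single value. limma (lmFit and eBayes with trend, two-sided) tested all non-control probes with Benjamini-Hochberg adjustment at 0.05. The comparison of 20 with 3 months had the animal as a block, because the labels give the same animal codes at both ages. Replicate numbers otherwise mark arrays and not shared animals. The authors deposited no comparisons in the files used.

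Genes named were the 12 members of highest rule value, up to 3 per list, up to 4 called members per direction and test, those at the edge of the list and those with the 4 highest and 4 lowest differences of 195 days minus birth. The scripts were tested on simulated data.

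Alternatives were background subtraction, median-centred channels, deposited log10 ratios, array means subtracted and a filter on dim probes (well above background in at least 24 channels). Others were eBayes without trend, dye effects kept, slide or animal blocks and the arrays of each replicate number left out in turn.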

Additional observations from a re-analysis of the deposited data

Results flagged for a closer look

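At 135 days, each member named by the rule was looked at for an animal far from the other 4, by Dixon's ratio of the gap to the nearest animal over the whole range. Of 39 members looked at, 15 passed the 95% critical value, and the animal was GP672 in all 15. Chance alone passes about 1 in 20 groups, but the rule chose these members partly by the GP672 reading, so the count is a description and is not set against that share. It was the highest in 8: PPARG (ratio 0.868), AIFM3 (0.867), CHRDL1 (0.839), THRSP (0.829), TNNI3 (0.807), DGAT2 (0.729), ACRP30 (0.720) and C1QC (0.710). It was the lowest in 7: IGSF1 (0.907), F2 (0.902), CFB (0.897), ARHGAP36 (0.846), MAP3K7CL (0.810), STBD1 (0.776) and HEYL (0.740). PPARG read 13.08 in GP672, with the nearest animal at 8.79, and IGSF1 read 7.84, with the nearest at 13.07. The cause of the GP672 readings was not tested.

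In the diet experiment the restricted minus growth difference was not the same at time 1 as at time 0 in 15 members, by limma's test of the difference between the 2 (6.33% of all probes). It moved up in 2, F2 (1.59, SE 0.20, adjusted p = 0.0139) and ABCG4 (0.51, SE 0.11, adjusted p = 0.0407), and down in 13. The widest of these were HEYL (-2.29, SE 0.51, adjusted p = 0.0480), STBD1 (-1.97, SE 0.39, adjusted p = 0.0372), COL15A1 (-1.87, SE 0.38, adjusted p = 0.0384) and DPT (-1.69, SE 0.35, adjusted p = 0.0407). The test took each animal's own change between the 2 times, in the animals sampled at both.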

How the results depend on the processing

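The members themselves depended on the rule's inputs: 97 of 150 stayed without the channel of GP672, 59 without the requirement of signal above background at 135 days, and 94 to 123 with 1 array per time point left out, lowest without replicate 2, the arrays that hold GP672. Centred channel medians gave 23 calls for 20 against 3 months in place of 55, and the difference of the changes from time 0 gave 15 at diet time 1 in place of 30, with 11 shared. After birth the crosses had 0 calls, but 16 with the mean of each array subtracted and 14 from the deposited log10 ratios. Those ratios, fitted as 1 value per array with no animal term, gave 3 calls at diet time 0 against 0. The causes were not tested.

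With the arrays of each replicate number left out in turn, calls ranged from 120 to 129 for 195 days against 3 months and 41 to 52 for 20 against 3 months. They ranged from 20 to 25 at diet time 1 and 0 to 1 for the cross at 135 days, where GHRH was called without replicate 1. Slide as a random replicate block gave 120 calls for 195 days against 3 months, slide as a fixed replicate block 0 between the crosses, and the animals taken as unpaired, with no replicate block, 38 for 20 against 3 months. Without the 3-month samples of GP112 and GP201, chosen after seeing their adipocyte markers, 130 members were called at 195 days against 3 months. With GP041A and GP041B taken as 1 animal, chosen after seeing the data, 126 were called there and 0 between the crosses before birth. Of 263 values of 24 tests of named genes, 253 kept their direction and side of the threshold, 10 lost the threshold and 0 reversed. Members near background (7 of 150 were well above it in fewer than 24 channels) have compressed differences.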

Other observations

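Some members of immune function were high in a single animal at 7 months, a value that enters no comparison above. In the Wagyu animal GW245 the chemokine CCL8 read 10.53 at 7 months, against 6.96 to 7.98 in the other 7 animals of that age. CXCL10, a chemokine induced by interferon, read 10.58 there against 7.67 to 8.81, RTP4, also induced by interferon, 11.95 against 8.75 to 10.44, and C1QB 12.70 against 10.09 to 11.43. The same animal read 7.00 to 7.84 for CCL8 and 8.32 to 8.80 for CXCL10 at its other ages, 3, 20, 25 and 30 months. The summed macrophage markers stood at 14.86 in GW245 at 7 months and at 12.89 to 14.00 in the others. These genes were picked after their values were seen, and no test was made.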
